A study of Mus musculus with 56 samples.

Results

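The lipid droplet and lipolysis genes described here are 10 transcripts of mouse liver, namely Plin2, Plin4, Plin5, Cideb, Cidec, Pnpla2, G0s2, Lipe, Mgll and Abhd5, out of the 25415 rows of the deposited gene table. They were chosen by name, and their Ensembl identifiers were matched to symbols in the GENCODE vM21 annotation, where all 10 were found. The livers came from C57BL/6J females, 9 weeks old and without a transgene, which were fed for 7 days either by daytime-restricted feeding, abbreviated DRF, or by nighttime-restricted feeding, abbreviated NRF, and their RNA was sequenced. All animals lived under 12 h of light and 12 h of dark with normal chow, and NRF, in which food and the dark phase coincide for a nocturnal animal, was the reference. Collection was at zeitgeber times (ZT, counted in hours from lights on) 0, 4, 8, 12, 16, 20 and 24, with 4 libraries per regimen and time, which makes 56 libraries in 14 groups. The clock hours between which food was offered were not given in the sources used here, nor was it stated outright that each library came from a separate mouse, so "liver" stands for a library below. P-values measure the spread between these libraries.

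Liver cells store triglyceride in lipid droplets. Perilipins coat the droplet surface and CIDE proteins promote droplet fusion and growth. Lipolysis removes fatty acids in steps: ATGL, encoded by Pnpla2, cuts triglyceride, hormone-sensitive lipase, encoded by Lipe, cuts diglyceride, and monoacylglycerol lipase, encoded by Mgll, cuts monoglyceride. ABHD5 (CGI-58) activates ATGL and G0S2 inhibits it, so the same lipase can be active or silent at one transcript level. In liver the balance of storage and release follows the alternation of feeding and fasting, and only transcripts, not proteins or lipids, were measured here.

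Values are given as scaled counts, a linear measure rebuilt from the deposited table and on a common scale between libraries. Within a library it is proportional to the count recovered for a gene, which is not a number of reads. The rebuilt values of 9 members came out as whole counts within 0.05 in all 56 libraries. Mgll, the most deeply counted member, did so within 0.2. Levels of different genes are compared only after division by exon length. Per kilobase of exon, the mean over all libraries was highest for Mgll at 134 scaled counts, followed by Plin2 at 68.5 and Cideb at 49.6. G0s2 stood at 13.0, Plin5 at 7.82, Abhd5 at 3.90, Pnpla2 at 3.68 and Lipe at 1.56 scaled counts per kilobase. Cidec at 0.338 and Plin4 at 0.145 were the lowest. Cidec and Plin4, with means of 0.627 and 0.839 scaled counts, fell under the minimum mean of 1 used for the tests across genes, so 8 of the 10 members were tested there. Cidec and Plin4 were fitted again without the minimum and with a pseudocount of 0.1, a choice made after the data were seen.

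Several members share exon bases with a gene on the opposite strand, and whether strand was used in counting was not given in the sources used here. The Nop9 gene covers 76.3% of the exon bases of Cideb, so the Cideb values may hold Nop9 reads. Antisense genes cover 15.6% of the exon bases of Lipe, 16% of Abhd5 and 3.29% of Mgll, and Hdgfl2 covers 0.294% of Plin4. The other 5 members overlap no exon of another gene.

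Gene positions are given in GRCm38. Plin4 (chr17:56100591-56109803) and Plin5 (chr17:56111601-56117596) are neighbours on the minus strand, and Plin2 is at chr4:86648386-86670060, Cideb at chr14:55754050-55758458 and Cidec at chr6:113424634-113435760, all minus. Pnpla2 is at chr7:141455198-141460743 (plus), Lipe at chr7:25379527-25398710 (minus), Mgll at chr6:88724412-88828360 (plus), G0s2 at chr1:193272161-193273217 (minus) and Abhd5 at chr9:122351608-122381524 (plus). Each value covers the union of the gene's exons.

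Cell type markers were checked beside the members. The hepatocyte markers Ttr, Apoa1, Cps1 and Cyp2e1 were high in every library, with a summed level of 23800 to 45400 scaled counts, and Alb was not analysed here. The counts of Ttr, Cps1 and Cyp2e1 were too deep to judge whether they came out whole. Cps1 was the largest part of the sum, with a median of 19300 scaled counts beside 31100 for the sum. Of 7 white adipocyte markers, 3 were analysed. Fabp4 ranged from 0.189 to 1.42 scaled counts, while Cfd was at 0 in 24 libraries and Cidea in 39. The summed level of these adipocyte markers ranged from 0.433 to 1.42 over the libraries, with group means between 0.698 (NRF ZT16) and 1.06 (DRF ZT8). Adipocytes also express Cidec and Plin4. Over the libraries, the other summed marker levels ranged from 610 to 902 scaled counts for 6 stellate cell markers, from 332 to 668 for 5 Kupffer cell markers and from 243 to 358 for 4 sinusoidal endothelium markers. The 1 pancreas marker analysed, Cela1, ranged from 1.58 to 4.72 scaled counts over the libraries. The part of cell composition in the results was not tested, and in bulk tissue fewer cells of a type and less RNA per cell cannot be told apart.

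All 10 members had a promoter window in RefSeq (assembly GRCm38.p6), defined as 250 bases before to 50 after a transcription start, and 4 of them had more than 1, which made 14 windows. The windows of Plin2, Mgll and Lipe each hold the E-box CACGTG, the core sequence bound by clock transcription factors among others, and are shown together with that of Pnpla2, the member with the most calls between regimens. Each is written 5′ to 3′ on the gene's strand, with matches to a searched motif in capitals.
Plin2, chr4:86670010-86670309, minus strand: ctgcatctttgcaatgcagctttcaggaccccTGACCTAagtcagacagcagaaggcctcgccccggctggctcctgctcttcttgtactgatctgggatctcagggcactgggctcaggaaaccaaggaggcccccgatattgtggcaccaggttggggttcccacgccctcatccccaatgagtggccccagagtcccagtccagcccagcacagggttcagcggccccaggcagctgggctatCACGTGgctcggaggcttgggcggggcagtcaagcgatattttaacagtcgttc
Mgll, chr6:88724162-88724461, plus strand: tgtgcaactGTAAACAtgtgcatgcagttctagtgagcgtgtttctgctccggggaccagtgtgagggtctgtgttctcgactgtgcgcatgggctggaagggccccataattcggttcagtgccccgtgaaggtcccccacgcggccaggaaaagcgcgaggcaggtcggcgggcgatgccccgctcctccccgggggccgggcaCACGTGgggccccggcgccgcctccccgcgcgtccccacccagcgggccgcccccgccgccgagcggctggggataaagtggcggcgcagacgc
Lipe, chr7:25395938-25396237, minus strand: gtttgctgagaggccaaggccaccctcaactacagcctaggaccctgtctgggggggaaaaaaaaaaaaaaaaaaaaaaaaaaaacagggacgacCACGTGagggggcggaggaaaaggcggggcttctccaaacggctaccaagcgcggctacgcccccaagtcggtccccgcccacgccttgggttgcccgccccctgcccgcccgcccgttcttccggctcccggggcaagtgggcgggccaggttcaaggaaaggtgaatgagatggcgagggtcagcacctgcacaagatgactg
Pnpla2, chr7:141454938-141455237, plus strand: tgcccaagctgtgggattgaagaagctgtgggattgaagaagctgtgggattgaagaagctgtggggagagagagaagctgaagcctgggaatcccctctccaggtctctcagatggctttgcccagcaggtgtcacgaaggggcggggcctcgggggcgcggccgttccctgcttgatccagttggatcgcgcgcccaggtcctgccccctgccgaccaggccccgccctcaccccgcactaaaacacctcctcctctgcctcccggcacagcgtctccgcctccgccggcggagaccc

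The E-box begins 4 bases before the start in Plin2, 44 before it in Mgll and 155 before it in Lipe. CACGTG was present in 7.15% of the 32851 promoter windows of all genes and in 3 windows of the members. Plin2 also holds TAGGTCA, the ROR element, on the opposite strand at position -218 from the start, a word found in 2.61% of windows. Mgll holds the forkhead word GTAAACA at position -241, and the second Lipe window, not shown, holds it on the opposite strand 119 bases before its start. GTAAACA occurred in 3.65% of all windows. No member window held the D-box words TTATGTAA (0.938% of windows) or TTACGTAA (0.119%), the cAMP response element TGACGTCA (1.79%), the direct repeat 1 (0.0396%) or the glucocorticoid element (0.00913%), all searched on both strands. The ROR element and the direct repeat 1 share letters. A match is a description of letters, not evidence of a bound site.

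To ask whether the members followed the clock time or the feeding time, a 24-h cosine was fitted to each gene. Under DRF, 6 of the 8 tested members had a 24-h rhythm, against 54.6% of all 13728 genes tested (limma, adjusted p under 0.05). Under NRF, 7 of 8 did, against 60.9% of genes. Pnpla2, Lipe, Mgll, G0s2, Plin2 and Plin5 were rhythmic in both regimens, Abhd5 under NRF (adjusted p = 0.00137 under NRF and 0.555 under DRF), and Cideb in neither (adjusted p = 0.384 under DRF and 0.928 under NRF). A 24-h rhythm in both regimens was called for 38.4% of all genes. The rhythm itself differed between regimens for 7 of 8 members, all but Cideb (adjusted p = 0.467), against 57.0% of all genes. The members were chosen with earlier results of these data known, so that these shares are a description.

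The fitted peaks of the lipases lay far apart between the regimens. Pnpla2 peaked at ZT 22.0 ± 0.336 (SE, n = 28) under DRF and at ZT 9.72 ± 0.480 under NRF, an absolute phase shift of 11.7 ± 0.585 h, where 12 h is the largest possible. Lipe peaked at ZT 21.5 ± 0.751 under DRF and at ZT 8.08 ± 0.701 under NRF, a shift of 10.6 ± 1.03 h. Both lipases thus peaked in the later part of the phase without food in either regimen. Mgll peaked at ZT 6.75 ± 0.398 under DRF and ZT 16.1 ± 0.537 under NRF, within the phase with food, and its shift was 9.34 ± 0.668 h. G0s2, the inhibitor of ATGL, also peaked in the feeding phase, at ZT 2.26 ± 1.10 under DRF and ZT 16.3 ± 1.38 under NRF, a shift of 9.92 ± 1.77 h. Counting a shift of 8 h or more as phase-inverted, 4 of the 6 members rhythmic in both regimens were inverted, against 50.8% of the 5277 such genes.

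The perilipins moved less. Plin2 peaked at ZT 23.2 ± 1.10 under DRF and ZT 5.45 ± 0.983 under NRF, a shift of 6.25 ± 1.48 h. Plin5 peaked at ZT 15.8 ± 0.898 under DRF and ZT 19.6 ± 0.680 under NRF, a shift of 3.88 ± 1.13 h. With a shift of 4 h or less counted as phase-locked, Plin5 was the 1 member of 6 in that class, against 23.9% of all genes rhythmic in both regimens. Its shift lies close to the boundary relative to its error. Differences in shift between members were not tested.

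**Figure D1:**
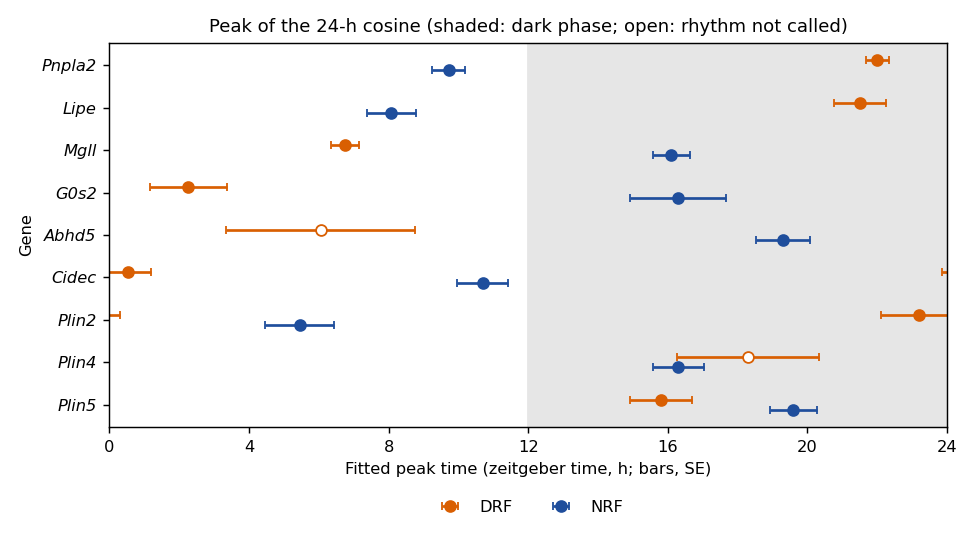
Fitted peak time of the 24-h cosine for 9 members (Cideb, with no rhythm called, is left out), with DRF in orange, NRF in blue, bars for the SE and zeitgeber time in hours on the x axis. Filled points mark a called rhythm and open points none. The DRF and NRF points of Pnpla2 and Lipe lie 11.7 and 10.6 h apart, those of Plin5 3.88 h apart.

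Relative to the mean, the amplitude of Pnpla2 was 38.8% under DRF and 47.8% under NRF, that of Lipe 24.4% and 23.4%, and that of Mgll 36.6% and 31.2%. G0s2 had a relative amplitude of 61.8% under DRF and 35.5% under NRF, and its rhythm under NRF was weakly supported (adjusted p = 0.0418). Leaving out any 1 of 14 libraries ended that call, with adjusted p up to 0.109, and the exact Kendall rank test gave 0.0922. Plin4, the member with the lowest level, had a relative amplitude of 17.6% under DRF and 60.7% under NRF. The Abhd5 amplitude was 0.868 ± 0.695 scaled counts under DRF and 2.63 ± 0.597 under NRF (SE).

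Pnpla2 was the member that differed at most times of day, at 6 of 7. At ZT0 the 4 DRF livers held 17.9, 14.9, 16 and 18.9 scaled counts of Pnpla2 and the 4 NRF livers 6.71, 9.62, 6.45 and 8.48. The groups did not overlap, and the log2 difference was 1.03 ± 0.13 (SE, adjusted p = 1.85e-08). At ZT20 the DRF livers held 16.5, 14.7, 18.5 and 14.9 and the NRF livers 4.77, 6.26, 6.61 and 5.46, so that the DRF mean was 2.79-fold the NRF mean (log2 difference 1.34 ± 0.13, adjusted p = 3.80e-11). The sign was opposite at ZT8 and ZT12. At ZT12 the DRF livers held 7.88, 8.88, 7.05 and 7.74 and the NRF livers 20.3, 20.9, 12.9 and 14.5, again without overlap (log2 difference -1.01 ± 0.13, adjusted p = 3.33e-08). ZT8 differed in the same direction (-0.78 ± 0.13, adjusted p = 9.11e-06) and ZT24 in the direction of ZT0 (0.94 ± 0.13, adjusted p = 1.99e-07). The call at ZT16 (0.34 ± 0.13, adjusted p = 0.0474), where the groups overlapped, was lost when any 1 of 22 libraries was left out, and ZT4 was not called (adjusted p = 0.20). Across groups, the highest mean was 17.2 ± 4.08 (SD, NRF ZT12), which overlapped DRF ZT0 at 16.9 ± 1.81, and the lowest was 5.77 ± 0.828 (NRF ZT20).

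Lipe, the diglyceride lipase, had called differences of the same sign as Pnpla2 at ZT0, ZT8, ZT12, ZT20 and ZT24. At ZT4, where neither was called, the log2 difference was -0.32 ± 0.14 for Lipe (adjusted p = 0.0693) and 0.22 ± 0.13 for Pnpla2. The DRF livers held 13.8, 11.7, 10.4 and 12.3 scaled counts of Lipe at ZT0 and the NRF livers 7.83, 8.74, 7.49 and 7.71. Every DRF liver was above every NRF liver (log2 difference 0.54 ± 0.14, adjusted p = 0.00213). At ZT20 the DRF mean was 1.59-fold the NRF mean (0.61 ± 0.14, adjusted p = 0.000696), and ZT24 was called too (0.50 ± 0.14, adjusted p = 0.00516, 0.0543 without NRF ZT24 replicate 4). Lipe was lower under DRF at ZT12, with means of 6.58 ± 1.33 and 9.14 ± 2.01 (SD, n = 4), and the groups overlapped. That call (log2 difference -0.42 ± 0.14, adjusted p = 0.0195) was lost without DRF ZT12 replicate 4 (-0.28, adjusted p = 0.149) or without NRF ZT12 replicate 2 (-0.30, adjusted p = 0.133). The ZT8 call (-0.37 ± 0.14, adjusted p = 0.0479) was lost when any 1 of 30 libraries was left out.

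Mgll, which releases the last fatty acid from glycerol and also breaks down the endocannabinoid 2-arachidonoylglycerol, was higher under DRF at ZT4 and ZT8 and lower at ZT16 and ZT20. At ZT4 the DRF livers held 884, 960, 867 and 1110 scaled counts of Mgll and the NRF livers 431, 374, 712 and 456. All DRF values exceeded all NRF values (log2 difference 0.99 ± 0.16, adjusted p = 3.10e-06). At ZT16 the DRF livers held 531, 516, 445 and 446 and the NRF livers 952, 991, 794 and 999 (log2 difference -0.94 ± 0.16, adjusted p = 1.27e-05). ZT8 was called higher (0.62 ± 0.16, adjusted p = 0.00300) and ZT20 lower under DRF (-0.59 ± 0.16, adjusted p = 0.00429), both without overlap. ZT0, ZT12 and ZT24 were not called.

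G0s2, the ATGL inhibitor, had the largest difference among the 8 tested members. At ZT4 the DRF livers held 36.8, 27.2, 29.6 and 32.4 scaled counts of G0s2 and the NRF livers 9.88, 2.47, 20.1 and 4.36. The groups did not overlap although the NRF livers spread widely, and the DRF mean was 3.42-fold the NRF mean (log2 difference 2.0 ± 0.37, adjusted p = 3.58e-05). Without NRF ZT4 replicate 3, the liver with 20.1, it was 5.66-fold. ZT0 was also higher under DRF (1.16 ± 0.37, adjusted p = 0.0155), which became 1.01 with adjusted p = 0.0578 without NRF ZT0 replicate 4. At ZT16 the NRF livers held 18.0, 18.4, 14 and 13.1 and the DRF livers 4.12, 11.0, 5.62 and 4.89 (log2 difference -1.26 ± 0.37, adjusted p = 0.00966). Thus G0s2 stood highest 4 h into the light phase under DRF and 4 h into the dark phase under NRF.

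Abhd5, the ATGL activator, changed little. Its group means spanned 19.7 to 27.2 scaled counts. At ZT4 the DRF livers held 26.7, 28.7, 25.5 and 28 and the NRF livers 19.2, 19.2, 20.5 and 20 scaled counts of Abhd5. The groups were well apart for a log2 difference of 0.45 ± 0.09 (adjusted p = 5.16e-05). ZT12 was the other time called, at 0.30 ± 0.09 (adjusted p = 0.00569).

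**Figure D2:**
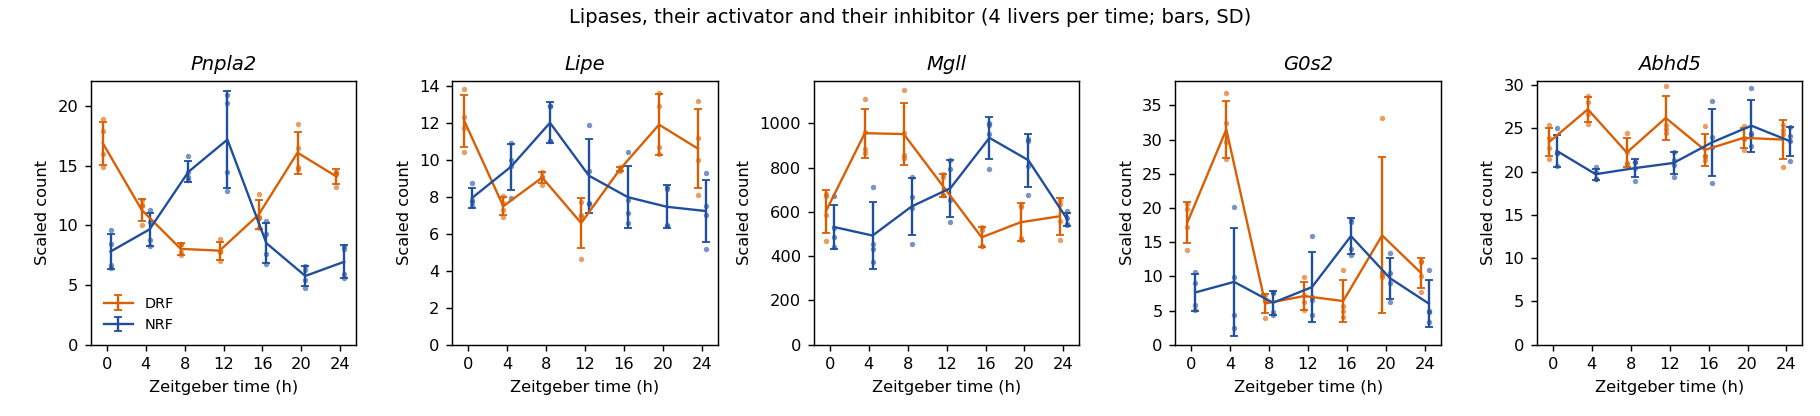
Scaled counts of Pnpla2, Lipe, Mgll, G0s2 and Abhd5 (y axes from 0) against zeitgeber time in hours, with DRF in orange and NRF in blue, points for the 4 livers of each group, lines for means and bars for the SD. The Pnpla2 lines cross between ZT4 and ZT8 and between ZT12 and ZT16, and G0s2 reached its highest mean, 31.5, in DRF at ZT4.

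Because G0S2 inhibits ATGL, the ratio of G0s2 to Pnpla2 scaled counts was computed in each liver, an addition made after the values were seen. The ratio was not divided by length and compares livers, not molecule numbers. At ZT4 it was 3.03, 2.72, 2.55 and 2.78 in the DRF livers and 1.19, 0.280, 1.79 and 0.423 in the NRF livers, with no overlap. At ZT16 it was 0.385, 0.867, 0.532 and 0.50 under DRF and 2.66, 1.98, 1.34 and 1.71 under NRF. Both differences gave p = 0.0286 in an exact two-sided permutation test (4 against 4), the smallest p this design allows, and 0.0930 after Benjamini-Hochberg adjustment over the 13 pairs of groups compared. The adjusted threshold was therefore not passed at any pair. In both regimens the highest mean ratio was in the group taken 4 h after the feeding phase began. It was 2.77 ± 0.199 under DRF and 1.93 ± 0.557 under NRF (SD, n = 4). The difference between these groups was not called (p = 0.0571, exact permutation test). Under NRF, ZT20 overlapped ZT16, with a mean ratio of 1.74 ± 0.74 and the highest NRF liver at 2.8. The DRF mean at ZT8 was 0.749 ± 0.167. Other groups were also paired by time since the feeding phase began. DRF ZT8 and NRF ZT20 had geometric mean ratios of 0.733 and 1.64, and DRF ZT20 and NRF ZT8 had 0.856 and 0.410. Neither pair overlapped, and each gave p = 0.0286 in the exact permutation test (0.0930 adjusted). The remaining pairs of this kind gave p = 0.0571 to 0.629 in the exact permutation test.

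**Figure D3:**
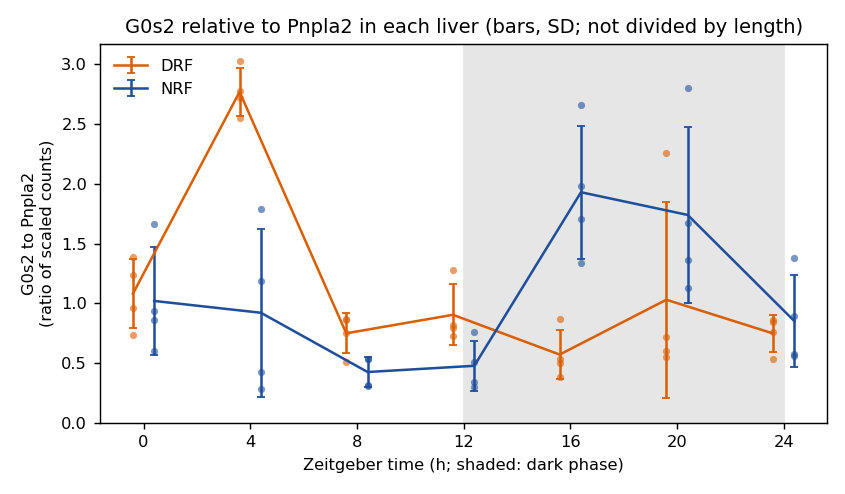
Ratio of G0s2 to Pnpla2 scaled counts in each liver (y axis from 0) against zeitgeber time in hours, with DRF in orange, NRF in blue, lines for means and bars for the SD. The DRF mean was highest at ZT4 (2.77) and the NRF mean at ZT16 (1.93).

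Among the droplet coat genes, Plin2, the main perilipin of hepatocytes, differed at 0 of 7 times of day by limma, although 2 times, ZT8 and ZT20, passed an unadjusted p of 0.05 (adjusted p = 0.143 and 0.0737). Its group means ranged from 134 ± 31.5 (NRF ZT16) to 345 ± 185 scaled counts (NRF ZT4). The NRF ZT4 livers held 242, 177, 597 and 365 scaled counts of Plin2, the widest spread of any Plin2 group. The library with 597 was the highest of its group for 9 of the 10 members, and its summed level of 13 fasting fat-use genes was 8090 scaled counts beside 3800 to 5080 in the other 3 livers. Whether that liver differed in feeding or handling was not tested. The rhythm of Plin2 was called in both regimens (adjusted p = 0.00607 under DRF and 0.000231 under NRF) and in every fit that left out 1 library.

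Plin5, which tethers droplets to mitochondria and is abundant in tissues that burn fat, had its highest group mean at ZT16 in both regimens, although ZT20 was within the spread of ZT16. The DRF livers held 43.0, 30.5, 24.1 and 20.1 scaled counts of Plin5 at ZT16 and the NRF livers 19.6, 25.8, 11.8 and 23.2. These groups overlapped and the difference was not called (0.53 ± 0.24 on the log2 scale, adjusted p = 0.107). Plin5 was higher under DRF at ZT12, with 19.3, 16.2, 19.5 and 15.7 against 11.2, 9.88, 11.5 and 9.10, where no values overlapped (0.71 ± 0.24, adjusted p = 0.0264). It was also higher at ZT8 (0.74 ± 0.24, adjusted p = 0.0228), with overlap. DRF ZT8 replicate 3 was the highest of its group for 8 members. Without DRF ZT8 replicate 3, replicate 4 or NRF ZT8 replicate 3, the ZT8 difference had adjusted p = 0.140, 0.0560 and 0.146. At ZT12, leaving out DRF replicate 1 or 3 or NRF replicate 2 or 4 gave adjusted p of 0.0590 to 0.0679. A 12-h component was called for Plin5 alone, under DRF (adjusted p = 0.0121, against 9.55% of all genes called), and was lost without the ZT0 libraries (adjusted p = 0.0573). Under NRF no member had one by limma (4.47% of genes called), while 2 passed an unadjusted p of 0.05.

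Cideb, a CIDE protein that also serves the lipidation of very-low-density lipoprotein, varied little. Its 14 group means lay between 66.3 and 81.9 scaled counts, and no 24-h rhythm was called. At ZT16 the DRF livers held 83.0, 79.0, 82.0 and 83.7 and the NRF livers 55.5, 66.6, 74.4 and 74.1 scaled counts of Cideb, without overlap (log2 difference 0.28 ± 0.08, adjusted p = 0.00766). Without NRF ZT16 replicate 1 this became 0.19 with adjusted p = 0.0816. The difference at ZT4 (0.20 ± 0.08, adjusted p = 0.0498) was lost when any 1 of 36 libraries was left out.

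Cidec, the CIDE protein that enlarges droplets in fat cells and steatotic liver, was low but varied most. At ZT0 the DRF livers held 2.25, 1.34, 1.19 and 1.27 scaled counts of Cidec and the NRF livers 0.212, 0.248, 0.320 and 0.139. The DRF mean was 6.58-fold the NRF mean and the groups were far apart (log2 difference 2.27 ± 0.29 without the minimum and with a pseudocount of 0.1, adjusted p = 7.39e-08, where 15.7% of 25387 genes were called). ZT24 gave 2.08 ± 0.29 (adjusted p = 5.89e-07, 5.79-fold by the means and 9.15-fold without NRF ZT24 replicate 3) and ZT20 gave 1.65 ± 0.29 (adjusted p = 3.69e-05). At ZT12 the order was opposite, with 0.456, 0.452, 0.381 and 0.461 under DRF and 0.723, 1.32, 1.3 and 0.785 under NRF (-1.03 ± 0.29, adjusted p = 0.00991). ZT4 was also higher under DRF (0.84 ± 0.29, adjusted p = 0.0333). A rhythm was called under DRF (adjusted p = 2.16e-07, against 35.1% of genes in this fit) and under NRF (1.53e-06, against 43.4%). The peak lay at ZT 0.527 ± 0.659 under DRF and ZT 10.7 ± 0.728 under NRF, a shift of 10.2 ± 0.982 h. The rhythm-adjusted mean was higher under DRF (0.43 ± 0.13, adjusted p = 0.0348, against 6.75% of genes).

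Plin4, a long perilipin best known in fat and muscle, was the lowest member per kilobase. The NRF ZT16 livers held 2.26, 1.9, 1.19 and 1.04 scaled counts of Plin4 and the NRF ZT8 livers 0.438, 0.358, 0.193 and 0.376, the highest and lowest means of all 14 groups. Those groups did not overlap, and a rhythm was called under NRF (adjusted p = 2.85e-05) and not under DRF (0.469). The rhythms differed between regimens (adjusted p = 0.0311, against 38.8% of genes in this fit). Between regimens, ZT0 was the 1 time of day called, at 0.99 ± 0.35 (adjusted p = 0.0474, and 0.0652 with a pseudocount of 1).

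**Figure D4:**
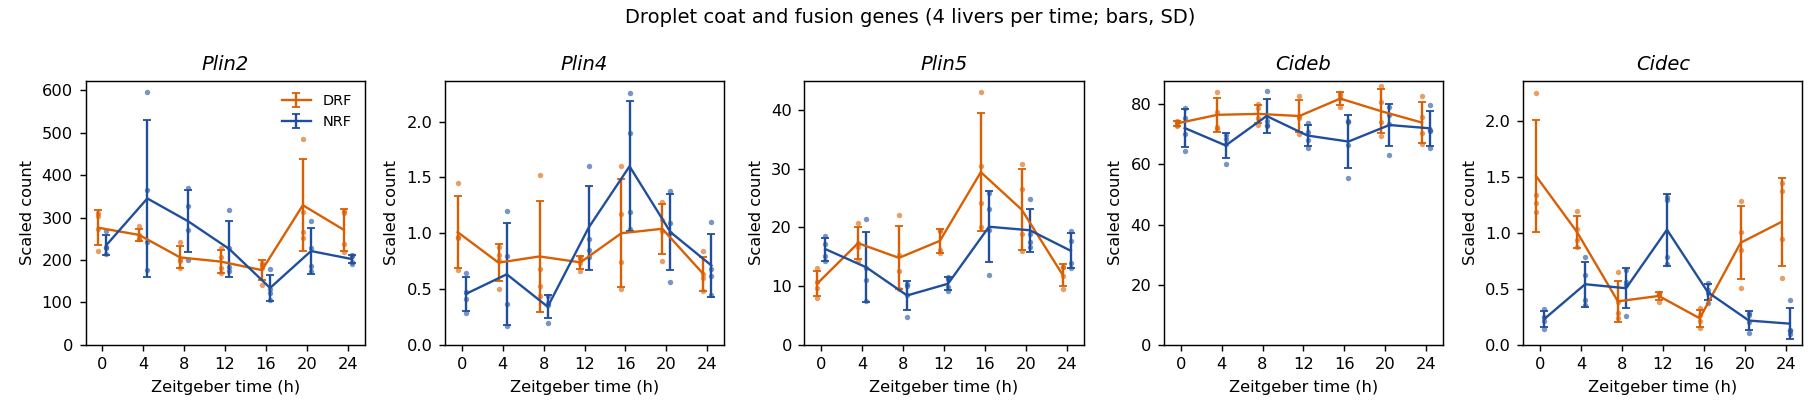
Scaled counts of Plin2, Plin4, Plin5, Cideb and Cidec (y axes from 0) against zeitgeber time in hours, with DRF in orange and NRF in blue, points for the 4 livers of each group, lines for means and bars for the SD. Cidec means were 1.51 in DRF and 0.230 in NRF at ZT0, while Cideb means stayed between 66.3 and 81.9 throughout.

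Counted over the 7 times of day, the 8 tested members gave 24 called differences in 56 pairs of member and time (42.9%), beside 25.7% of all pairs of gene and time. Called members numbered 3 at ZT0, beside 26.6% of genes called, and 4 at ZT4, beside 32.5%. ZT8, ZT12 and ZT16 had 4 called members each, beside 22.0%, 26.0% and 25.5% of genes. ZT20 had 3, beside 23.5%, and ZT24 had 2, beside 24.1%. At ZT0, ZT4 and ZT24 every called member was higher under DRF, beside 13.6%, 18.8% and 12.1% of genes called higher and 13.0%, 13.7% and 12.0% called lower. At ZT8, ZT12 and ZT16, 2 members were higher and 2 lower, beside 10.2%, 12.3% and 15.7% of genes higher and 11.8%, 13.7% and 9.87% lower. At ZT20, 2 were higher and 1 lower, with 9.54% of genes called lower. The rhythm-adjusted mean was higher under DRF for Plin5, Cideb, Pnpla2 and Abhd5, 4 of 8 members, against 11.2% of genes called, 7.55% called higher and 3.64% lower. These mean differences were small, from 0.12 ± 0.03 for Cideb (adjusted p = 0.00960) and 0.12 ± 0.04 for Abhd5 (0.0165) to 0.16 ± 0.05 for Pnpla2 (0.0455) and 0.31 ± 0.11 for Plin5 (0.0432). The Pnpla2 call was lost when any 1 of 32 libraries was left out and the Plin5 call with any 1 of 25.

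The same members were then compared at the same time since the feeding phase began, lights on for DRF and lights off for NRF, by setting each DRF group beside the NRF group 12 h later in the cycle. These comparisons use the same libraries as those at equal time of day. Over 6 such pairs of groups, 9 of 48 pairs of member and time were called (18.8%), close to the 18.3% of all pairs of gene and time. For Lipe and Mgll, none of 6 was called by limma. The Lipe log2 differences ranged from -0.12 to 0.38 and those of Mgll from -0.23 to 0.34, with the SE of each being 0.14 and 0.16. The largest Lipe value, for DRF ZT0 and NRF ZT12, had an unadjusted p of 0.00806 and an adjusted p of 0.0941. The largest Mgll value, for DRF ZT12 and NRF ZT24, had an unadjusted p of 0.0368 and an adjusted p of 0.253. Those Mgll groups did not overlap, and neither did the Lipe groups for DRF ZT8 and NRF ZT20 (0.26 ± 0.14, adjusted p = 0.177).

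At the start of feeding (DRF ZT0 and NRF ZT12) 0 members were called by limma, 2 at an unadjusted p under 0.05 and 0 with limma's trend and robust options, beside 5.29% of all genes (2.5% higher and 2.79% lower under DRF). At its end (DRF ZT12 and NRF ZT24) 0 were called, 1 unadjusted and 0 with those options, beside 3.07% (1.77% and 1.3%). Pnpla2 was at 16.9 ± 1.81 in DRF ZT0 and 17.2 ± 4.08 in NRF ZT12 (SD, n = 4), a log2 difference of 0.00 ± 0.13. G0s2 had the largest log2 difference of the members in this pair, 1.13 ± 0.37, and its groups overlapped. Its unadjusted p by limma was 0.00398 and its adjusted p 0.0628. At 4 h into feeding (DRF ZT4 and NRF ZT16) Plin2, Pnpla2 and Abhd5 were higher under DRF, beside 24.3% of genes called, 15.2% higher and 9.13% lower. The Plin2 difference was 0.97 ± 0.23 (adjusted p = 0.00209), with 249, 279, 258 and 249 scaled counts against 123, 131, 105 and 178 and no overlap. The Pnpla2 difference of 0.39 ± 0.13 (adjusted p = 0.0227) had adjusted p = 0.129 without NRF ZT16 replicate 1, 0.0639 without DRF ZT4 replicate 1 and 0.0591 without NRF ZT16 replicate 4. The Abhd5 call (adjusted p = 0.0492) was lost with any 1 of 40 libraries left out. G0s2 was not called in this pair by limma, at 0.95 ± 0.37 (adjusted p = 0.0545), although its groups did not overlap. Cidec was higher in the same pair (0.97 ± 0.29, adjusted p = 0.0189, against 14.9% of genes without the minimum). Plin4 had a log2 difference of -0.98 ± 0.35 there, with adjusted p = 0.0521 and with 0.0234 at a pseudocount of 1.

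In the phase without food, Plin5 was the 1 tested member called in both pairs of groups. It was higher in DRF ZT16 than in NRF ZT4 (1.13 ± 0.24, adjusted p = 0.000469) and in DRF ZT20 than in NRF ZT8, where the DRF livers held 18.8, 30.8, 26.6 and 15.9 scaled counts of Plin5 and the NRF livers 10.4, 9.95, 4.79 and 8.49. The latter groups did not overlap (1.35 ± 0.24, adjusted p = 5.20e-05). Of the 8 tested members, 3 were called for DRF ZT16 and NRF ZT4 and 2 for DRF ZT20 and NRF ZT8. The background was 28.3% of genes called for the first pair (17.0% higher and 11.3% lower under DRF) and 27.4% for the second (14.5% and 13.0%). Plin4 was also higher in DRF ZT20 than in NRF ZT8, 3.06-fold by the means (adjusted p = 0.00478 without the minimum, against 15.8% of genes). Plin2 was lower in DRF ZT16 than in NRF ZT4 (-0.83 ± 0.23, adjusted p = 0.00515), which became -0.52 with adjusted p = 0.0730 without NRF ZT4 replicate 3. Cideb was higher in the same pair (0.30 ± 0.08, adjusted p = 0.00405), and Cidec was lower with a pseudocount of 0.1 (-0.91 ± 0.29, adjusted p = 0.0241, against 17.0% of genes without the minimum) and not called with a pseudocount of 1 (adjusted p = 0.0772). The summed hepatocyte markers had their highest group mean in DRF ZT16 (40800 scaled counts) and their lowest in NRF ZT4 (26300), the groups in which the Cideb mean was also highest and lowest, and their part in the Cideb difference was not tested. G0s2 was higher in DRF ZT20 than in NRF ZT8 (1.09 ± 0.37, adjusted p = 0.0245). That difference was 0.69 with adjusted p = 0.182 without DRF ZT20 replicate 2, the highest liver of its group for 6 members, and adjusted p was 0.0777 and 0.0679 without NRF ZT8 replicate 3 and 4. The remaining pair, DRF ZT8 and NRF ZT20, had 1 call, Pnpla2 at 0.42 ± 0.13 (adjusted p = 0.0154, and 0.0766 without NRF ZT20 replicate 1), beside 21.4% of genes, 12.1% higher and 9.36% lower.

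**Figure D5:**
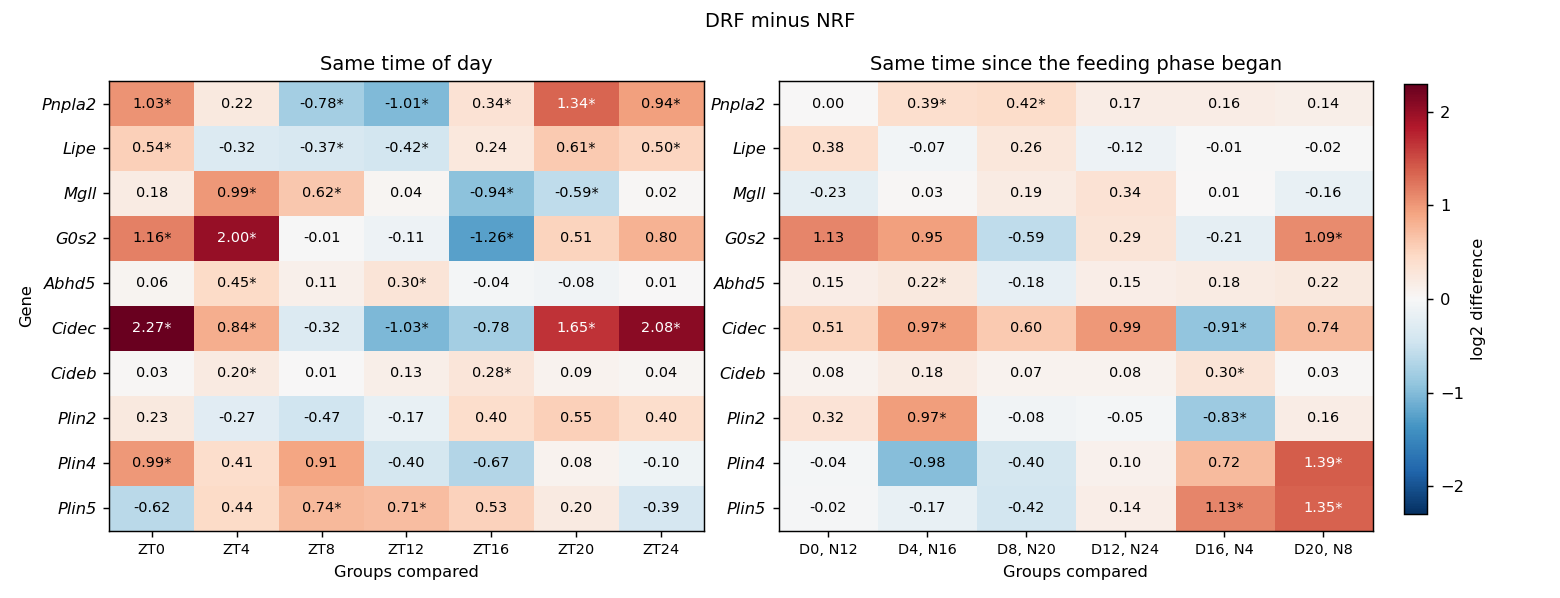
Log2 differences, DRF minus NRF, for the 10 members (rows) at the same ZT (left) and at the same time since the feeding phase began (right, D and N followed by the ZT of the DRF and the NRF group), with red for higher under DRF and an asterisk for an adjusted p under 0.05. Cidec and Plin4 are from the fit without a minimum and with a pseudocount of 0.1, and the other rows have a pseudocount of 1. Their values are therefore not on the same footing as the other rows. With a pseudocount of 1, the Cidec value at ZT0 was 1.01 instead of 2.27. The left panel has strong values of both signs for Pnpla2, from -1.01 to 1.34, and in the right panel its values lie between 0.00 and 0.42.

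The livers of ZT24 and ZT0 were taken at the same clock time in different groups. Between them 0 members were called by limma under DRF and 0 under NRF, 0 also at an unadjusted p under 0.05 and 0 with the trend and robust options, beside 6.16% and 13.7% of all genes. The largest difference was that of G0s2 under DRF, -0.72 ± 0.37 (adjusted p = 0.238). Its groups did not overlap, with means of 10.5 at ZT24 and 17.9 at ZT0. Nor did those of Pnpla2 under DRF (14.1 and 16.9) and of Plin2 under NRF (202 and 235), while the other members overlapped. Groups without overlap thus also occurred within a regimen at the same clock time. With the values as deposited, 3 members were called under NRF.

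Other genes of the pathway were read from chosen lists, each at the time of day with the most calls in that list. Of 14 tested genes of droplet formation and coating other than the members, 7 were called at ZT4, 6 higher and 1 lower under DRF, beside 32.5% of all genes called, with a median log2 difference of 0.28 beside 0.03 over all genes. At the other times 2 to 5 were called, and at ZT12 both of the 2 were lower. The 3 largest called differences at ZT4 were those of Pcyt1a (0.77 ± 0.24, adjusted p = 0.0107), Fitm1 (0.64 ± 0.14, adjusted p = 0.000328) and Fitm2 (0.63 ± 0.16, adjusted p = 0.00160), all higher under DRF. Pcyt1a makes the phosphatidylcholine of droplet surfaces, and the products of Fitm1 and Fitm2 help droplets bud. Of 12 tested lipases and hydrolases, 9 were called at ZT20, 5 higher and 4 lower, beside 23.5% of all genes, with a median of -0.02 beside 0.03. At the other times 5 to 7 were called. At ZT20 Pnpla3, a relative of Pnpla2, had means of 2.82 ± 1.56 under DRF and 31.6 ± 9.11 under NRF (SD, n = 4). That was the reverse of the order of Pnpla2 at ZT20, with a log2 difference of -3.13 ± 0.42 (adjusted p = 1.38e-07). Nceh1, a neutral cholesterol ester hydrolase (1.12 ± 0.15, adjusted p = 2.23e-07), and Lipg, endothelial lipase (0.96 ± 0.26, adjusted p = 0.00492), were higher under DRF at ZT20.

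Genes of fat use in fasting and of fat synthesis after meals set the members beside the feeding state. Of 12 tested fasting genes, 9 were called at ZT0, 8 higher and 1 lower under DRF, beside 26.6% of all genes called, with a median log2 difference of 0.75 beside 0.00 over all genes. ZT20 had the same counts, and at ZT12 2 were higher and 5 lower, with a median of -0.40. At ZT0 Cpt1a, which admits long-chain fatty acids to mitochondria, had means of 243 ± 12.1 scaled counts under DRF and 80.1 ± 8.26 under NRF (1.59 ± 0.14, adjusted p = 9.67e-13). Cyp4a14, a fatty acid hydroxylase, was also higher under DRF at ZT0 (1.31 ± 0.35, adjusted p = 0.00402). Pdk4, which shuts pyruvate dehydrogenase, was the 1 gene called lower under DRF at ZT0 (-1.96 ± 0.32, adjusted p = 5.89e-06). Of 10 lipogenic genes, 9 were called at ZT8, all higher under DRF, beside 22.0% of all genes, with a median of 1.71 beside -0.01. At ZT20, 7 were called, all lower, with a median of -1.80. Among the genes higher under DRF at ZT8 were Thrsp (2.65 ± 0.45, adjusted p = 1.78e-05) and Elovl6, a fatty acid elongase (2.47 ± 0.31, adjusted p = 5.37e-08). Pnpla2, Lipe and the ATGL inhibitor G0s2, the 3 members called at ZT0, thus were higher under DRF there together with most of the fasting genes. Mgll and Plin5 were higher under DRF at ZT8 together with the lipogenic genes, while Pnpla2 and Lipe were lower. The genes are set side by side, with no test of the association.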

How the data were processed

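Liver RNA of 56 libraries was measured by ribosome-depleted, strand-specific RNA sequencing per the labels, although their molecule field reads polyA RNA. The submitters' processing notes name CASAVA 1.8, featureCounts 1.5.0-p3 and the builds mm10 and GRCm38.p6. The aligner, and whether counting used strand, are not given in the sources used here. The authors deposited a gene table headed TPM whose values are a score on a compressed scale: value times GENCODE vM21 exon length equals a factor times the natural log of 1 plus a scaled count. Factors were fitted per library on a random part of the genes and checked on the rest, where 96.2% to 96.6% of values came out whole within 0.05 (10% by chance). Recovered counts are not reads, so no read depth or counting interval is given, and genes with few counts are the least precise.

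Scaled counts were tested as log2(scaled count + 1) with limma 3.58.1 (R 4.3.3) over all 56 libraries, for 13728 genes with a mean of 1 or more, with Benjamini-Hochberg adjustment over all genes. Log2 differences of low genes are understated on this scale. Rhythms were F tests of a 24-h cosine and sine. Peak times, amplitudes and SE came from a cosine on scaled counts (delta method). Scripts were tested on simulated data. All 10 members were named, with for each list up to 3 genes of the largest called difference at the time with most calls, and for each member the 3 genes most like it. A gene that this rule names is not reported here. Members and lists were chosen with earlier results of these data known. Alternatives were other pseudocounts, filters, scalings, the values as deposited, a length correction, a replicate block, an exact Kendall test, and leaving out libraries. Transcript and circular RNA tables were not used here.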

Additional observations from a re-analysis of the deposited data

Results flagged for a closer look

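The 24-h rhythm differed between regimens by an interaction test (limma) for 7 of the 8 tested members, beside 57.0% of all genes. The adjusted p was 3.58e-18 for Pnpla2, 2.76e-11 for Mgll, 1.88e-07 for Lipe, 0.000120 for G0s2, 0.00116 for Plin5, 0.00319 for Plin2 and 0.00454 for Abhd5. Without the minimum mean and with a pseudocount of 0.1, Cidec gave 9.26e-11 and Plin4 gave 0.0311. In that fit, a choice made after the data were seen, 38.8% of all genes were called.

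In 7 of 140 groups of 4 livers, 1 liver lay far from the others by Dixon's test, the number that chance gives (5% of groups, or 7). G0s2 was 33.1 scaled counts in 1 liver of DRF ZT20 and 9.88 to 10.7 in the others. Cidec was 2.25 in 1 liver of DRF ZT0 (others 1.19 to 1.34), 0.398 in 1 of NRF ZT24 (others 0.0990 to 0.135) and 0.381 in 1 of DRF ZT12 (others 0.452 to 0.461). Abhd5 was 29.9 in 1 liver of DRF ZT12 (others 24.5 to 25.4) and 25.3 in 1 of DRF ZT16 (others 21.3 to 21.8). Cideb was 84.5 in 1 liver of NRF ZT8 (others 72.7 to 74.4).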

How the results depend on the processing

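Of 58 member results called in a comparison, those with a sign kept it under every alternative run, and the rhythm and 12-h tests have no sign. In 696 refits other than leaving out a library, 642 kept the call and 54 lost it. With 1 library left out, 219 of 3248 refits lost it, over 17 results. The 54 lost calls concerned, between regimens, Cideb at ZT4 and ZT16, Lipe at ZT8 and ZT12, Pnpla2 at ZT16, Pnpla2 and Abhd5 for DRF ZT4 and NRF ZT16, Plin2 for DRF ZT16 and NRF ZT4, the Pnpla2 and Plin5 means, the NRF rhythm of G0s2 and the 12-h component of Plin5. Counts of members called moved by over 1.5 times as follows, and the cause was not tested unless given. With the values as deposited, counts were 2 at ZT16, 1 for DRF ZT4 and NRF ZT16, 2 for DRF ZT8 and NRF ZT20, 5 for DRF ZT20 and NRF ZT8, 3 for ZT24 against ZT0 under NRF, and 0 for the 12-h component under DRF. Median-of-ratios scaling gave 1 for DRF ZT4 and NRF ZT16, 2 for DRF ZT8 and NRF ZT20, and 2 for the rhythm-adjusted mean, where a length correction also gave 2. A minimum mean of 10, with fewer genes tested, gave 1 at ZT24, 1 for DRF ZT0 and NRF ZT12, and 1 for the 12-h component under NRF, which was also 1 with a pseudocount of 5 and 1 without the ZT24 libraries. Without the ZT0 libraries the 12-h component under DRF was called for 0. With no minimum and a pseudocount of 0.1, an alternative added after seeing the data, ZT0 had 5, since Cidec and Plin4 then entered.

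With 1 library left out, the counts ranged from 2 to 4 at ZT0, 3 to 6 at ZT4, 2 to 4 at ZT8, ZT12 and ZT16, 3 to 4 at ZT20 and 1 to 3 at ZT24. At matched feeding time they ranged from 0 to 2, 1 to 4, 0 to 1, 0 to 0, 2 to 3 and 1 to 3, from DRF ZT0 on. Rhythms ranged from 6 to 6 under DRF, 6 to 7 under NRF and 7 to 7 for their difference, means from 2 to 4, and 12-h components from 1 to 1 and 0 to 1.

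Replicate numbers do not pair the livers: the deviations of 28 same-numbered pairs correlated between -0.145 and 0.084. With the replicate block, 3 members instead of 4 were called at ZT16 and 3 instead of 4 for the mean, and the other counts were as without the block.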

Other observations

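By Pearson's r over the 14 group means of log2 scaled counts, among 8885 genes with a mean of 5 or more, Pnpla2 was most like Coro1b (r = 0.966), Pbld1 (0.966) and Atp6v1e1 (0.963). Lipe was most like Sulf2 (0.945), Sorbs3 (0.923) and Rasa3 (0.918), and Mgll most like Vac14 (0.917), Tspan4 (0.912) and Fez2 (0.894). G0s2 was most like Dnajc5 (0.858), Trim41 (0.854) and Slc16a5 (0.831), and Abhd5 most like 2700097O09Rik (0.923), Gtf2e1 (0.878) and Rnf135 (0.878). Plin2 was most like Hnrnpa0 (0.883), Slc38a7 (0.867) and Eepd1 (0.860), Plin4 most like Atl2 (0.905), Chd9 (0.893) and Cipc (0.877), and Plin5 most like Tbc1d14 (0.926), Rps27l (0.899) and Slc25a15 (0.890). Cidec was most like Afg3l2 (0.909), Gpat3 (0.908) and Slc27a1 (0.906), and Cideb most like Taldo1 (0.922), Ndufb11 (0.911) and Dera (0.909). These values describe 14 points that share libraries and are the extremes of many candidates, and no other member was among the 3 most like genes of any member.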
